A study of Mus musculus with 24 samples.

Results

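The rod photoreceptor genes described here were 9 genes of the retina table, Gnat1, Pde6a, Pde6b, Pde6g, Cnga1, Cngb1, Sag, Nrl and Nr2e3, out of 36595 genes listed. A gene was taken when its Ensembl identifier carried one of these symbols, and no measured value entered this rule, although the list of symbols was drawn up with earlier results of these data known. All 9 genes were found and all 9 were among the 19173 genes that passed the filter on low counts. RNA sequencing had been carried out on 12 retinas and 12 lungs of mice, in 4 groups of 3 per tissue, and the retinas are described here. WT-RA retinas came from wild-type mice kept in room air (21% oxygen), and WT-O2 retinas from wild-type mice that breathed 75% oxygen between postnatal days 7 and 12 and then returned to room air. KO-RA and KO-O2 retinas came from gasdermin D knockout (GSDMD-KO) mice of the C57/B6 strain under the same 2 exposures, and all retinas were taken on postnatal day 18. The knockout was a germline 38 bp deletion in exon 5 of Gsdmd made with CRISPR/Cas9, so every cell type of the mouse carried it.

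Rods are the photoreceptors of dim light and the most numerous cells of the mouse retina. Light-activated visual pigment switches on the G protein transducin, transducin releases the cGMP phosphodiesterase from its inhibitory subunits, cGMP falls and the cGMP-gated cation channel closes. Gnat1 encodes the rod transducin alpha subunit. Pde6a and Pde6b encode the catalytic subunits of the phosphodiesterase and Pde6g its inhibitory subunit. Cnga1 and Cngb1 encode the channel subunits, and Sag encodes the arrestin that ends the signal. Nrl encodes the leucine zipper factor that sets rod fate, and Nr2e3 the nuclear receptor that acts below Nrl to keep cone genes off in rods. The comparisons ask whether hyperoxia followed by room air, the exposure of the oxygen-induced retinopathy model, and loss of GSDMD moved these transcripts.

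The stretches just upstream of the transcription start are shown for 4 members because those members carry the largest single-gene differences described below or the motif matches. They come from RefSeq (GRCm38.p6), each is the 100 bases before the start, and capitals mark the 2 motifs searched on both strands, TAATCC (the core bound by CRX) and TGCTGAC (the short site bound by NRL). In Sag the capitals read GGATTA, the same CRX core on the opposite strand.
Sag, chr1:87803580-87803679, plus strand: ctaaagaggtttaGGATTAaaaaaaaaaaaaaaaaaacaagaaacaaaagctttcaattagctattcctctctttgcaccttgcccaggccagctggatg
Cngb1, chr8:95306586-95306685, minus strand: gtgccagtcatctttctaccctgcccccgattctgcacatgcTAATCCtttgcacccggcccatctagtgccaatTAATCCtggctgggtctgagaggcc
Pde6b, chr5:108388273-108388372, plus strand: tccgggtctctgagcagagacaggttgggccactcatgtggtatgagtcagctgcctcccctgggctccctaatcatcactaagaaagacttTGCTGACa
Nr2e3, chr9:59950080-59950179, minus strand: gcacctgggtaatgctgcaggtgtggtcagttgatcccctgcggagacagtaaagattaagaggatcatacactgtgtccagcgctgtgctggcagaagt

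Promoter windows (250 bases before to 50 after the start) were at hand for 6 of the 9 members, and for Gnat1, Pde6a and Pde6g none was used. The CRX core lay in 3 of these 6 windows. Sag held it 87 bases before the start, Cngb1 58 and 25 bases before it, and Cnga1 228 bases before it. The NRL site lay in 1 of the 6, that of Pde6b, 8 bases before the start. For Pde6b alone, the bases after this start were not found near the beginning of an annotated transcript. The distance of 8 bases therefore rests on a start that was not checked. Among all 32851 promoter windows of the same length, 7.06% held the CRX core and 4.67% the NRL site. Nr2e3 and Nrl held neither string of letters in this window.

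The retina libraries summed to 24863225 to 29093010 estimated counts each, which are totals of per-length values and not read depths. Lens crystallins and other lens genes held 11.7% of the counts in WT-RA replicate 3, 7.77% in KO-RA replicate 3 and 4.46% in WT-RA replicate 2, against at most 0.0534% in the other 9 libraries. Gsdmd itself was at 4.08, 0.42 and 2.70 CPM (estimated counts relative to the TMM-corrected library total) in WT-RA replicates 1 to 3 and at 5.70, 2.90 and 3.85 CPM in WT-O2. The knockout libraries had 0.98, 0.77 and 0.64 CPM under room air and 1.11, 1.44 and 2.95 CPM after hyperoxia. The libraries labelled WT-RA 2 and KO-O2 3 thus went against their labels, so results are also given without that pair. The deletion removes only 38 bp, so reads from the rest of the transcript still count and the check is partial. Y-linked transcripts were present in 3 of 3 WT-RA, 3 of 3 KO-RA, 1 of 3 WT-O2 and 1 of 3 KO-O2 libraries, so most hyperoxia libraries lacked them and sex and exposure overlapped. The scaling factors that make libraries comparable (TMM factors, from edgeR) were 0.899, 0.936 and 0.863 in WT-RA and 1.03 to 1.10 in WT-O2.

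The members were abundant in every retina, and together they held 2.13% to 2.66% of each library's counts. Values of the retina table behaved as if already divided by transcript length, so levels on this per-length scale can be set side by side between genes. Gnat1 had the highest level, 10532 ± 1580 CPM (SD, n = 12 libraries), and stood at rank 8 of all genes. Sag followed at 4488 ± 608 CPM and Pde6g at 4017 ± 625 CPM, and Sag was above Pde6g in 8 of 12 libraries, so the order of these neighbours was not kept. Nrl came next at 1622 ± 120 CPM, ahead of Pde6b at 1017 ± 89.2 CPM in all 12 libraries. Cngb1 (733 ± 54.3 CPM), Pde6a (704 ± 76.2 CPM) and Nr2e3 (663 ± 88.2 CPM) overlapped, Cngb1 exceeding Pde6a in 9 libraries and Pde6a exceeding Nr2e3 in 8. Cnga1 was the lowest at 443 ± 47.1 CPM, below Nr2e3 in all 12 libraries, and stood at rank 212.

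On this per-length scale, which was inferred from the values, subunits of the same complex were not at equal levels of RNA. The inhibitory Pde6g was 3.95 ± 0.470 times the catalytic Pde6b, and Pde6a was 0.695 ± 0.0723 times Pde6b (mean ± SD of the ratio within a library, n = 12). Cnga1 was 0.610 ± 0.0915 times Cngb1. The lungs served as a tissue without rods. They were taken on postnatal day 15, after 85% oxygen or room air from day 1 to 14, so they differed from the retinas in age and exposure. The level of Gnat1 there was 0.302 to 1.02 CPM, of Sag 0.412 to 1.53 CPM and of Nr2e3 0 to 0.0338 CPM. Cngb1 was at 1.13 to 4.04 CPM there. Lung CPM was relative to the library total, without TMM. Unlike the retina values, lung values did not behave as divided by transcript length, so the members cannot be ranked by level in the lungs. Lung values were scaled in a table of their own, and set the background rather than a tested difference.

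**Figure D1:**
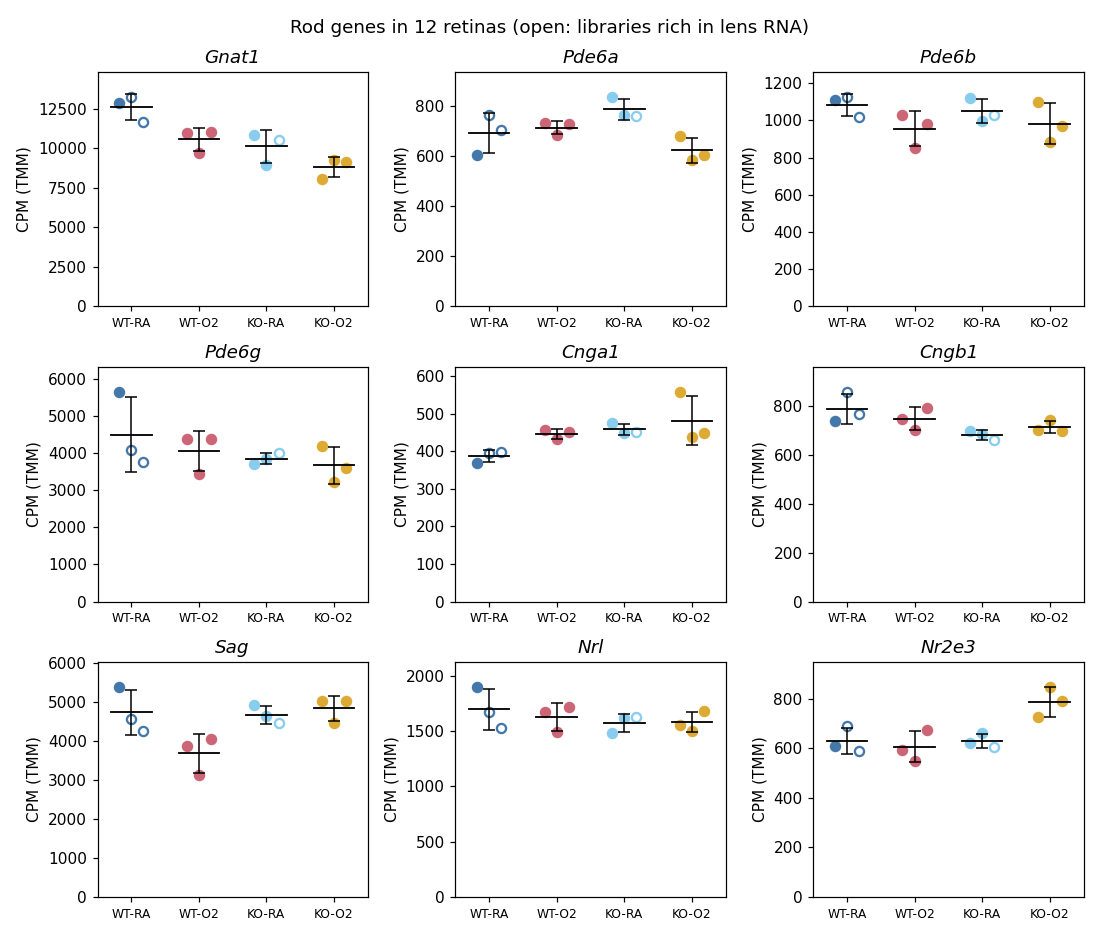
Level of each rod gene in CPM after TMM scaling (vertical axis, from 0) in the 12 retinas by group, 1 point per library, open points for the 3 libraries rich in lens RNA, with the group mean and SD (n = 3). Sag lies lowest in WT-O2 and Nr2e3 highest in KO-O2, while Nrl spans 1483 to 1899 CPM over all libraries.

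No rod gene passed the test for a change with hyperoxia in wild-type retinas. A gene was called when its adjusted p was under 0.1 (quasi-likelihood test of edgeR, adjusted by Benjamini-Hochberg over all genes tested), its unadjusted p was under 0.05 and its fold change was at least 2. By this rule 0 of 9 members were called against 391 of 19173 genes (2.04%), and 0 of 9 reached adjusted p under 0.1 at any fold, against 5.16% of all genes. An unadjusted p under 0.05 was found for 2 of 9 members, Sag and Gnat1, against 17.4% of all genes. DESeq2 also called 0 members at a fold of 2 or more, against 635 of 27318 genes. It gave 2 of 9, Sag (0.0247) and Gnat1 (0.083), an adjusted p under 0.1, against 9.82% of the 19173 genes tested with edgeR. In bulk tissue fewer rods and less RNA per rod cannot be told apart.

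Sag, the rod arrestin, was at 5382, 4567 and 4270 CPM in WT-RA and at 3869, 3129 and 4067 CPM in WT-O2. All 3 WT-O2 libraries lay below all 3 WT-RA libraries. The difference was -0.36 ± 0.13 on the log2 scale (± SE, 95% interval -0.64 to -0.09), with an adjusted p of 0.164 in edgeR's quasi-likelihood test. Gnat1, the transducin subunit, was at 12866, 13258 and 11681 CPM in WT-RA and at 10991, 9716 and 11022 CPM in WT-O2. These groups did not overlap either, with a log2 difference of -0.25 ± 0.11 and an adjusted p of 0.255. Cnga1, the channel subunit, went the other way, at 369, 394 and 398 CPM in WT-RA and 457, 432 and 451 CPM in WT-O2. Its groups did not overlap, and the log2 difference was 0.21 ± 0.10 with an adjusted p of 0.321. Thus 3 of 9 members had groups apart, against 24.0% of all genes, 1 of them higher and 2 lower in hyperoxia.

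The remaining members had log2 differences between -0.18 (Pde6b) and 0.04 (Pde6a), and both groups overlapped in each. Nrl, the rod fate factor, was at 1899, 1674 and 1530 CPM in WT-RA and at 1677, 1491 and 1723 CPM in WT-O2. Nr2e3 was at 608, 690 and 591 CPM against 593, 550 and 675 CPM. Neither transcription factor differed by more than the spread within its groups. The median log2 difference of the 9 members was -0.07, beside 0.00092 over all genes tested.

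The TMM factors of WT-RA were all below those of WT-O2, so the scaling itself was varied. With library totals as the only scaling, the median over all genes moved from 0.00092 to 0.24, and the median of the members from -0.07 to 0.16, below the all-gene median in both. On that scale Gnat1 differed by -0.02 and Sag by -0.13, and neither had groups apart, whereas Cnga1 differed by 0.44 with an adjusted p of 0.0455 in the same test, still under a fold of 2. Cnga1 and Pde6a were the 2 of 9 members with groups apart on that scale, against 32.6% of all genes. Relative to the median gene, Gnat1 and Sag were below it and Cnga1 above it on both scales. Without the 3 libraries rich in lens RNA, which left 1 WT-RA library whose spread was taken to be that of the other groups, Sag differed by -0.55 (adjusted p = 0.137), Pde6g by -0.48 and the members' median by -0.22. Without the libraries labelled WT-RA 2 and KO-O2 3, Sag differed by -0.39 (adjusted p = 0.313) and Gnat1 by -0.22.

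No rod gene passed the same rule with hyperoxia in GSDMD-KO retinas, where 2.19% of all genes were called. At adjusted p under 0.1 and any fold the count was again 0 of 9, against 7.82% of all genes. An unadjusted p under 0.05 was found for 2 of 9 members, Pde6a and Nr2e3, against 20.3% of all genes. DESeq2 called 0 members at a fold of 2 or more, against 658 of 27318 genes. It gave 2 of 9, Pde6a (0.00626) and Nr2e3 (0.014), an adjusted p under 0.1, against 13.1% of the genes tested with edgeR. The members' median log2 difference was 0.01, beside 0.00074 over all genes tested.

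Pde6a, the alpha catalytic subunit, was at 837, 763 and 761 CPM in KO-RA and at 679, 587 and 604 CPM in KO-O2. All KO-O2 libraries lay below all KO-RA libraries, and the log2 difference was -0.34 ± 0.11 with an adjusted p of 0.111 in edgeR's quasi-likelihood test. Leaving out WT-RA replicate 1 gave an adjusted p of 0.0638 in the same test, and leaving out KO-O2 replicate 1 gave 0.0807. Other omissions raised it. The lowest adjusted p of any member was 0.333 without KO-O2 replicate 2, 0.266 without KO-RA replicate 1 and 0.241 without KO-O2 replicate 3. Nr2e3, the nuclear receptor, was at 623, 661 and 604 CPM in KO-RA and at 726, 846 and 790 CPM in KO-O2. Its groups did not overlap, and the log2 difference was 0.32 ± 0.11 with an adjusted p of 0.127, or 0.0974 without KO-O2 replicate 1. Nrl, in contrast, was at 1483, 1618 and 1627 CPM in KO-RA and 1556, 1506 and 1683 CPM in KO-O2, with the groups overlapping.

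Cngb1 was the other member whose knockout groups stood apart, at 698, 687 and 659 CPM in KO-RA and 702, 741 and 698 CPM in KO-O2, but the log2 difference was only 0.07. That made 3 of 9 members with groups apart, against 26.2% of all genes. Sag, which separated the wild-type groups, was at 4918, 4648 and 4467 CPM in KO-RA and 5019, 4476 and 5041 CPM in KO-O2, overlapping widely. Gnat1 was at 10861, 8967 and 10549 CPM in KO-RA and 8077, 9261 and 9137 CPM in KO-O2, also overlapping, with a log2 difference of -0.20 ± 0.11. On library totals Nr2e3 was the single member with groups apart, 1 of 9 against 22.7% of all genes. Without the 3 libraries rich in lens RNA, Pde6a differed by -0.36 (adjusted p = 0.132) and Nr2e3 by 0.30 (adjusted p = 0.253), and without the libraries labelled WT-RA 2 and KO-O2 3 by -0.31 and 0.32 (adjusted p = 0.251 for both).

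The 2 genotypes were compared next within each exposure. Under hyperoxia, 0 of 9 members were called between KO-O2 and WT-O2, against 0.292% of all genes, and 0 of 9 at any fold, against 1.27%. Unadjusted p was under 0.05 for 3 of 9 members, Nr2e3, Sag and Gnat1, against 12.6% of all genes. Nr2e3 was higher in KO-O2 by 0.38 ± 0.11 on the log2 scale (95% interval 0.14 to 0.62, adjusted p = 0.172 in edgeR's quasi-likelihood test). Sag was higher by 0.39 ± 0.13 (adjusted p = 0.212) and Gnat1 lower, at -0.26 ± 0.11 (adjusted p = 0.338). All 3 KO-O2 values of each of these genes lay outside the WT-O2 range, as did those of Pde6a, which was lower at -0.20 ± 0.11. These 4 of 9 members compare with 19.9% of all genes, and the same 4 stood apart on library totals, where the share of all genes was 19.2%. DESeq2 gave Nr2e3 (0.01), Sag (0.0285) and Gnat1 (0.0772) an adjusted p under 0.1, 3 of 9 against 5.03% of all genes. At a fold of 2 it called 0 members, against 164 of 27318 genes. Without the libraries labelled WT-RA 2 and KO-O2 3, Nr2e3 differed by 0.37 (adjusted p = 0.396), Sag by 0.37 (0.52) and Gnat1 by -0.29 (0.567). Red cell transcripts differed between these groups too, with 4 of 5 erythroid genes tested lower in KO-O2 at adjusted p under 0.1. The summed level of the 7 erythroid genes found, tested or not, was 370 to 429 CPM in KO-O2 against 983 to 1552 CPM in WT-O2. The part of red cell transcripts in the rod values was not tested.

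In room air, 0 of 9 members were called between KO-RA and WT-RA. Over all genes 0.00522% were called, which was 1 gene, mt-Nd3 (named after its value was seen), and at any fold it was again 1 gene (0.00522%). Gnat1, Cnga1 and Cngb1 had an unadjusted p under 0.05, 3 of 9 against 12.7% of all genes, and the same 3 had groups apart, against 17.7%. Gnat1 was lower in KO-RA at -0.32 ± 0.11 (adjusted p = 0.288 in edgeR's quasi-likelihood test), Cngb1 lower at -0.21 ± 0.09 (adjusted p = 0.392) and Cnga1 higher at 0.24 ± 0.10 (adjusted p = 0.353). Nr2e3 was level, at 0.00 ± 0.11. On library totals Cnga1 was the single member with groups apart (1 of 9, against 20.5% of all genes), with Gnat1 at -0.15 and the members' median at 0.12 while the median of all genes was 0.17. Without the libraries labelled WT-RA 2 and KO-O2 3, Gnat1 differed by -0.28, Cnga1 by 0.26 and Cngb1 by -0.14. In that fit 0 members had an unadjusted p under 0.05, and the share of all genes was not counted. Without the 3 libraries rich in lens RNA, which left 1 WT-RA library, Gnat1 differed by -0.39, Cnga1 by 0.31, Cngb1 by -0.10 and Pde6g by -0.59. That 1 library, WT-RA replicate 1, had Pde6g at 5639 CPM, against 4088 and 3746 CPM in WT-RA replicates 2 and 3. DESeq2 gave Gnat1 (0.0268) and Cngb1 (0.0479) an adjusted p under 0.1, 2 of 9 against 3.81% of all genes. At a fold of 2 it called 0 members, against 63 of 27318 genes.

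Whether hyperoxia acted differently in the 2 genotypes was tested as an interaction, the difference between the knockout and the wild-type hyperoxia effects. No member reached adjusted p under 0.1, the threshold for this test, which 0.00522% of all genes passed, namely Rbm3 alone (also named after its value was seen). DESeq2 likewise gave 0 members, against 2.85% of all genes. Unadjusted p was under 0.05 for 3 of 9 members, against 10.6% of all genes. The effect was more positive in the knockout for Sag, by 0.41 ± 0.18 (95% interval 0.02 to 0.80, adjusted p = 0.444 in edgeR's quasi-likelihood test), and for Nr2e3, by 0.38 ± 0.16 (adjusted p = 0.418). For Pde6a it was more negative, by -0.38 ± 0.15 (adjusted p = 0.411). Without the 3 libraries rich in lens RNA the Pde6a value was -0.59 (adjusted p = 0.268, again with 1 WT-RA library and the spread of the other groups) and that of Sag 0.57. Without the libraries labelled WT-RA 2 and KO-O2 3 the values were -0.44 for Pde6a, 0.41 for Sag and 0.30 for Nr2e3. On library totals, where the median of all genes was -0.19, they were -0.57, 0.23 and 0.20.

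Over all 45 member-by-comparison values, the largest difference was 0.41 on the log2 scale, a 1.33-fold difference, and the farthest end of any 95% interval was at 1.74-fold. A 2-fold difference therefore lay outside every interval of the edgeR fit of all 12 libraries. With a term for Y-linked expression, 0 members reached adjusted p under 0.1 in any of the 5 comparisons. Of all 19173 genes, 374, 836, 116, 1 and 1 did so, in the order of the comparisons above. The lowest adjusted p of a member in edgeR's quasi-likelihood test was 0.221, for Nr2e3 in the knockout hyperoxia comparison.

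**Figure D2:**
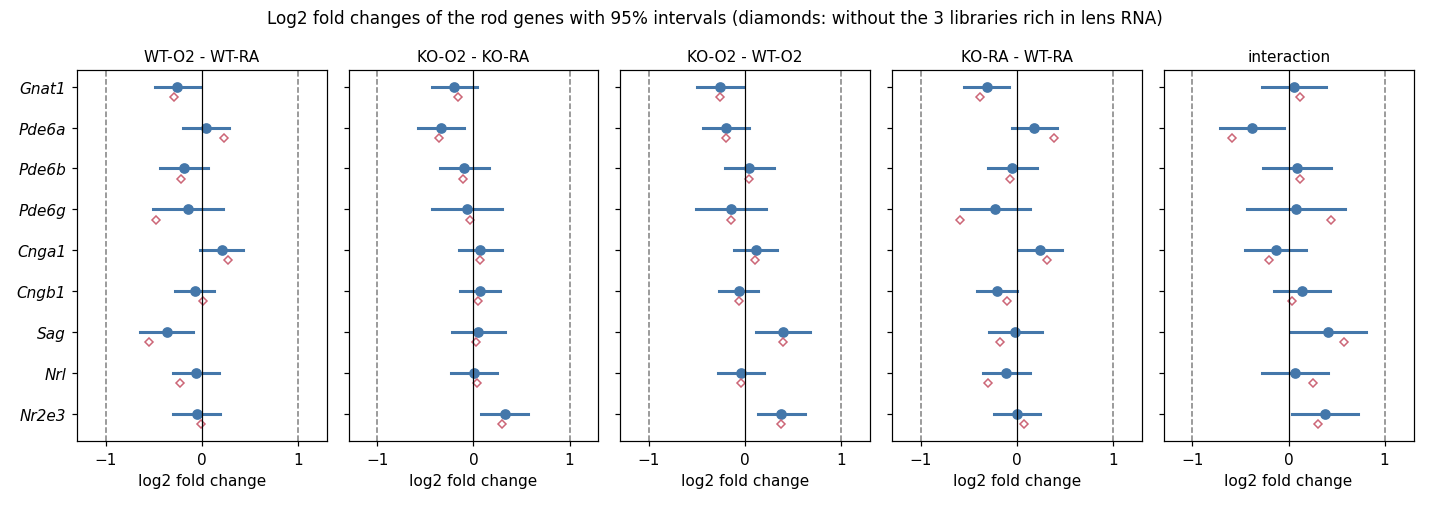
Log2 fold change of each rod gene (horizontal axis) in the 5 comparisons, as points with 95% intervals from edgeR, and as open diamonds for the fit without the 3 libraries rich in lens RNA. All 45 intervals end inside the dashed lines at a 2-fold difference, and the farthest end is that of Sag in the interaction, at 0.80.

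Ratios between members within a library do not depend on scaling or on lens RNA, and those described here were chosen after the values were seen and are given with no test. Sag was 0.418, 0.344 and 0.366 times Gnat1 in the WT-RA libraries and 0.352, 0.322 and 0.369 times Gnat1 in the WT-O2 libraries. The KO-RA libraries had ratios of 0.453, 0.518 and 0.423, and the KO-O2 libraries had ratios of 0.621, 0.483 and 0.552. The 6 libraries labelled GSDMD-KO ran from 0.423 to 0.621 and the 6 labelled wild type from 0.322 to 0.418, with a narrow gap. Both ranges were the same over 5 and 5 libraries without those labelled WT-RA 2 (0.344) and KO-O2 3 (0.552), whose Gsdmd levels went against their labels. Nr2e3 was 0.373 ± 0.0475 times Nrl (SD, n = 3) in WT-RA and 0.372 ± 0.0192 times Nrl in WT-O2. The knockout ratio was 0.400 ± 0.0256 for KO-RA mice and 0.499 ± 0.0543 for KO-O2 mice. The lowest KO-O2 ratio, 0.466, was above the highest of the other 9 libraries, 0.420. Pde6g relative to Pde6b overlapped between the genotypes, at 3.63 to 5.09 in the wild type and 3.30 to 3.88 in the knockout.

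Pde6a relative to Pde6b was 0.641 ± 0.0815 in WT-RA and 0.752 ± 0.0474 in WT-O2. The same ratio was 0.750 ± 0.0133 for KO-RA and 0.636 ± 0.0249 for KO-O2. Hyperoxia groups were thus above room air in the wild type and below it in the knockout, and in both genotypes the groups did not overlap. The wild-type gap was narrow, since the highest WT-RA ratio was 0.696 and the lowest WT-O2 ratio 0.712. How many other gene pairs had ratios with groups apart was not counted, for these ratios or for those above. Among single genes the share was 24.0% in the wild type and 26.2% in the knockout, which is not the share for ratios chosen after viewing. Cnga1 relative to Cngb1 was lowest in WT-RA, at 0.460 to 0.518, and ran from 0.569 to 0.794 over the other 9 libraries.

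**Figure D3:**
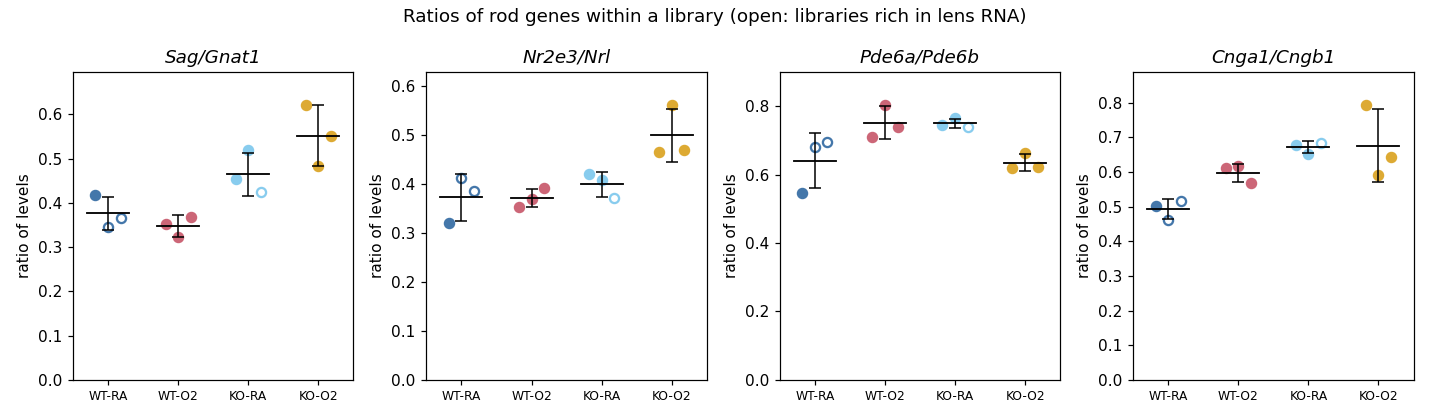
Ratio of the levels of 2 rod genes within each library (vertical axis, from 0) by group, 1 point per library, open points for the 3 libraries rich in lens RNA, with mean and SD (n = 3). Sag relative to Gnat1 is 0.322 to 0.418 in the libraries labelled wild type and 0.423 to 0.621 in those labelled knockout, and Nr2e3 relative to Nrl is highest in KO-O2.

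Members followed each other unevenly across libraries. Over the 36 pairs of members, Pearson's r of log2 CPM across the 12 libraries ran from -0.77 (Gnat1 with Cnga1) to 0.84 (Pde6g with Nrl), with a median of 0.15 and 23 pairs above 0. These are descriptions over libraries that share groups and scaling. The tested genes outside the list whose level followed the members' mean most closely were Atp5j2 (r = 0.87), Sntg2 (0.86), Jdp2 (0.85), Pop7, Yeats4, Lamtor4, Dnaic1, Uqcrq, Rpp30 and Sncg (0.82), over the 12 libraries.

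For the lists below, the share of all genes at adjusted p under 0.1 was the 5.16% of wild-type and the 7.82% of knockout hyperoxia given above, which in lists this short is about 1 gene. Of 13 other phototransduction genes, 1 fell and 0 rose at adjusted p under 0.1 in wild-type hyperoxia, with a median of 0.03. That gene was Guca1a, the guanylate cyclase activator that restores cGMP after light, which went from 465 ± 112 CPM in WT-RA to 230 ± 19.9 CPM in WT-O2 (log2 -1.01 ± 0.17, adjusted p = 0.0108 in edgeR's quasi-likelihood test). In knockout hyperoxia 2 of the 13 fell and 1 rose at that threshold, with a median of -0.30. Guca1a fell by 0.65 (adjusted p = 0.054) and Rgs9bp, the anchor of the transducin-switching RGS9 complex, by 0.49, while Gnb5, a subunit of that complex, rose from 816 ± 91.3 to 1142 ± 41.1 CPM (log2 0.48, adjusted p = 0.0271).

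Of 20 genes of the outer segment and photoreceptor structure, 2 rose and 0 fell in wild-type hyperoxia. The 2 were Impg2 of the interphotoreceptor matrix (log2 0.79) and the ciliary kinase gene Mak (0.35). In the knockout 0 of 20 passed, and 5 had an unadjusted p under 0.05, against 20.3% of all genes. Of 9 other photoreceptor transcription regulators, 0 passed in the wild type, where 1 had an unadjusted p under 0.05, against 17.4% of all genes. In the knockout 1 rose, Samd11, which encodes a repressor protein of rods, from 693 ± 39.9 to 1094 ± 66.1 CPM (log2 0.66 ± 0.10). Samd11 was also higher in KO-O2 than in WT-O2, by 0.48 (adjusted p = 0.0855).

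Several markers of other retinal cells reached adjusted p under 0.1 in the same libraries, counted here at any fold. With the 2-fold rule used for the rods, 0 cone, bipolar, amacrine, horizontal, ganglion cell or pigment epithelium genes were called in either genotype. That rule called 4 microglia, 6 endothelial and 1 Müller glia gene in the wild type, and 5, 2 and 1 in the knockout. Of 12 cone genes, 1 rose and 1 fell in the wild type at adjusted p under 0.1, Gnb3 (log2 0.49) and the cone arrestin gene Arr3 (-0.55). Of 10 bipolar genes, 5 fell in the wild type (median -0.39), among them Grik1 and Vsx1, and in the knockout 2 rose, Isl1 and Trpm1, and 2 fell. Of 11 amacrine and horizontal genes, 2 fell in the wild type and 1 in the knockout, and of 10 ganglion cell genes, 3 and 4 fell. Microglia markers rose in 5 and 6 of 10 genes and endothelial markers in 8 and 7 of 10, with medians of 1.02 and 1.11 for microglia and 1.04 and 0.83 for endothelium. Of 10 Müller glia genes, 2 rose and 3 fell in each genotype, and the glial filament gene Gfap rose by 2.66 and 2.08 on the log2 scale. Of 11 pigment epithelium and melanocyte genes, 1 (Rrh) fell in the wild type and 0 passed in the knockout, with medians of -1.18 and -2.01. In the knockout 7 had an unadjusted p under 0.05, against 20.3% of all genes. The summed level of those 11 genes was 264 to 716 CPM in WT-RA and 145 to 288 CPM in WT-O2, and 363 to 2669 CPM in KO-RA and 154 to 321 CPM in KO-O2. The libraries rich in lens RNA held the highest room-air sums. KO-RA replicate 3 was at 2669 CPM against 363 and 490 CPM in replicates 1 and 2. WT-RA replicates 2 and 3 were at 557 and 716 CPM against 264 CPM in replicate 1. In the fit of all 12 libraries the rod members' medians were -0.07 and 0.01, beside all-gene medians of 0.00092 and 0.00074. Without the 3 libraries rich in lens RNA, which left 1 WT-RA library, the members' medians were -0.22 and 0.02. The all-gene medians were then 0.05 and 0.01. The part of these other cells in the share of rod RNA was not tested.

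**Figure D4:**
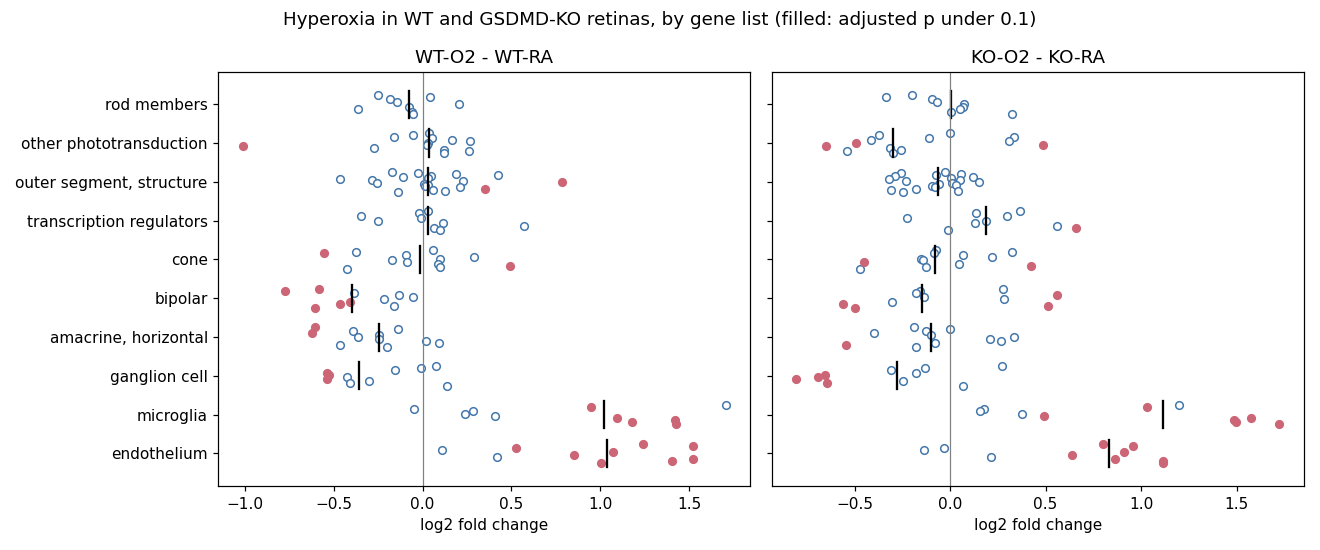
Log2 fold change with hyperoxia (horizontal axis) of each tested gene of 10 lists in wild-type (left) and GSDMD-KO (right) retinas, 1 point per gene, filled where adjusted p was under 0.1 in edgeR, with a bar at each list's median. The 9 rod genes are all open and lie between -0.36 and 0.32, while most microglia and endothelium genes lie to the right of 0.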

How the data were processed

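Whole retinas of 12 mice were analysed in 4 groups given by genotype and exposure. The authors ran kallisto on paired-end reads and used tximport to bring transcripts to gene level, and the deposited values are expected counts (estimated counts), not divided by library size. Tximport settings and the exact annotation were not settled by the sources used here. In the retina table the smallest value above 0 of genes with 1 transcript fell with transcript length (Spearman -0.83 across 3086 genes, against 0.03 across 2486 in the lung), so retina values were treated as already per length, and the totals are not read depths. Intervals cover the spread between these samples, and nothing in the labels pairs the mice.

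Values were rounded to whole numbers, genes with low counts were removed by filterByExpr, and libraries were scaled by TMM. All 12 retinas entered 1 model with a term per group (edgeR 4.0.16 quasi-likelihood test, R 4.3.3, Benjamini-Hochberg over 19173 genes). Symbols were found for 35968 of 36595 identifiers. DESeq2 1.42.0, other scalings, filters, covariates and left-out libraries were alternatives, of which the Y-linked term, the pair whose Gsdmd went against the label and library totals alone were chosen after seeing the data. Named genes were all members, at most 3 genes per list with the smallest p in the comparison described, Gsdmd, and the 10 genes closest to the members' mean, and mt-Nd3 and Rbm3 were added after their values were seen. The members and lists were chosen with earlier results of these data known. Over all 66 pairs of retina libraries, the mean squared difference was at least 21.2 times what counting alone would give if the deposited values were read counts, and no 2 libraries held the same values. Lung values were used only as a background level.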

Additional observations from a re-analysis of the deposited data

How the results depend on the processing

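The count of members called was 0 under all 24 alternative settings in 4 comparisons and under the 23 that could be run for the interaction. Of 981 values of single members from the 22 alternatives that refit the data, 45 changed sign, 14 of them with library totals as the only scaling, which moves all genes alike, and 0 with a 95% interval that left out 0 in the fit as reported. The members' median log2 difference in wild-type hyperoxia moved from -0.07 to -0.22 without the 3 libraries rich in lens RNA, where the all-gene median was 0.05. With library totals as the only scaling the members' median became 0.16 in wild-type hyperoxia, 0.12 in KO-RA against WT-RA and -0.10 in the interaction. The median of all genes moved to 0.24, 0.17 and -0.19. Counts over all genes depended on the tool, since edgeR called 391, 420, 56, 1 and 1 genes in wild-type hyperoxia, in knockout hyperoxia, between genotypes under hyperoxia, between genotypes in room air and in the interaction, and DESeq2 called 635, 658, 164, 63 and 547. Library totals alone gave 777, 414, 40, 43 and 0. Leaving out 1 library at a time gave 196 to 504, 151 to 439, 6 to 83, 0 to 1 and 0 to 340 genes. In wild-type hyperoxia the lowest count came without WT-RA replicate 2 and the highest without WT-RA replicate 3, in knockout hyperoxia without KO-O2 replicate 2 and WT-RA replicate 1, and between genotypes under hyperoxia without KO-O2 replicate 3 and KO-O2 replicate 1. The 340 genes of the interaction came without KO-O2 replicate 1. Leaving out the libraries labelled WT-RA 2 and KO-O2 3 gave 182, 313, 3, 0 and 0. The cause was not tested. No paired analysis was possible because the labels give no replicate numbers that groups share. Outside the interaction, which had no fold threshold, differences under 2-fold could not be called by the rule used. Some members did reach adjusted p under 0.1 below that fold, with DESeq2, with a library left out or on library totals, as given above. The widest interval end of 1.74-fold holds for the fit of all 12 libraries only.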
